A study of Homo sapiens with 8 samples.

Results

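This comparison asked what a synthetic mimic of the human microRNA miR-552-3p changes in the transcripts of HepG2 cells when importin8 has been lowered by siRNA. HepG2 is an established line from a human hepatocellular carcinoma. All 4 libraries compared came from cells given an importin8 siRNA at 30 nM for 72 h. The pair named si-importin8-miR-552-3p also received the mimic at 1 nM and is called the mimic libraries here. The pair named si-importin8-NC received a negative-control mimic at 1 nM and is called the control libraries. The other 4 libraries of the series form the arm with a negative-control siRNA at 30 nM in place of the importin8 siRNA, in the groups miR-552-3p and NC of 2 libraries each. The comparison covers 17715 of the 26716 genes listed, those that passed a filter on low counts over the 8 libraries. The series title names glycolipid metabolism of the liver and 2 nuclear receptors, FXR, which senses bile acids, and LXR, which senses oxysterols.

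A microRNA guides an Argonaute protein to transcripts that carry a match to its seed, bases 2 to 8 of the microRNA, and such transcripts are usually degraded or translated less. Importin8, encoded by IPO8, is a nuclear import receptor that is known to bind Argonaute proteins and has been linked both to their entry into the nucleus and to silencing in the cytoplasm. Hepatocytes make most plasma proteins and apolipoproteins, bile acids, cholesterol and, through gluconeogenesis, glucose, and they respond to blocked protein folding or amino acid shortage through the transcription factors ATF4, CHOP and XBP1.

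The mature sequence of miR-552-3p in RefSeq is shown with its seed in capitals, since the seed defines the target matches counted further on. It lies at chr1:34669614-34669634 of GRCh38.p14 on the minus strand and is 21 bases long. The sequence of the mimic as used in the study, and those of the siRNA and controls, are not given in the sources used here.
miR-552-3p: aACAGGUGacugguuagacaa

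The deposited counts of the 4 libraries summed to 21641985 to 22061806 per library. A level is given as CPM, the count in each 1e+06 reads of the scaled library size, and 3 counts corresponded to 0.135 to 0.144 CPM. The labels do not say that the 2 libraries of a group came from separate cultures. Each p-value thus measures only the spread between libraries of a group, which may be technical. That spread was estimated over all 8 libraries of the series. Both pairs differed by more than sampling noise, with a chi-square per degree of freedom of 4.53 in the mimic pair and 5.32 in the control pair. The pairs of the other arm, which also enter the spread, differed more, at 7.71 in miR-552-3p and 10.6 in NC. The libraries carried the transcripts that define hepatocytes: all 10 markers fixed for this purpose were measured, among them HNF4A at 239.9 to 317 CPM and ALB at 20794 to 29573 CPM over the 4 libraries. In bulk RNA, fewer cells of a kind and less of a transcript per cell cannot be told apart.

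IPO8, the target of the siRNA, was at 7.65 and 8.30 CPM in the mimic libraries and 11.3 and 11.5 CPM in the control libraries. In the NC group, which received neither active agent, it was at 34.7 and 33.3 CPM, so all 4 libraries compared lay below both NC libraries. IPO8 was also lower with the mimic than without it in this arm, a change of -0.52 on the log2 scale (SE 0.09). Its p after Benjamini-Hochberg adjustment in edgeR's quasi-likelihood test was 0.0022. The change with control siRNA was -0.44, and the 2 values did not differ beyond their error (difference -0.07, SE 0.12). The mimic libraries thus held less IPO8 transcript than their own controls, and the part of that in the results was not tested.

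With the mimic, genes of the unfolded protein, amino acid and heat shock responses rose, together with keratins, actin and matrix genes. Genes of DNA replication and mitosis fell, as did many genes of cholesterol and apolipoprotein metabolism and the transcription factors of hepatocytes. Bile acid genes moved both ways, with 7 of 14 lower and 4 higher. In all, 5607 of the 17715 genes (31.7%) passed an adjusted p of 0.05 in edgeR's quasi-likelihood test, 2649 of them higher with the mimic (15%) and 2958 lower (16.7%). A log2 change of 1 or more, which is 2-fold, was reached by 547 genes that rose (3.09%) and 584 that fell (3.3%), together 6.38% of all tested. Of the called genes, 1337 that rose and 1188 that fell changed by less than 0.5 on the log2 scale. Above a log2 size of 2 the rises outnumbered the falls, 188 against 110, whereas between 0.5 and 1 the falls outnumbered the rises, 1186 against 765.

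Of 15161 protein-coding genes tested, 2447 rose and 2797 fell. The 2196 long noncoding RNAs gave 162 rises and 115 falls, and the 357 pseudogenes 40 and 46. How many genes passed depended on single libraries. Without control replicate 2 the calls numbered 3545, with 1639 higher and 1906 lower, and without mimic replicate 1 they numbered 3551, with 1674 higher and 1877 lower. Without mimic replicate 2 the genes called lower numbered 1952. A set of 2830 genes (50.5% of those called), 1340 higher and 1490 lower, was called the same way in each of the 4 fits that left out 1 of these libraries. Scaling by library totals alone moved the split to 36.7% higher of 5745 called, against 47.2% with the main scaling, as the median of all genes moved from -0.0045 to -0.076.

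C5AR1, which encodes the receptor for the complement fragment C5a (chromosome 19, 47290023 to 47322066, plus strand, GRCh38), had the largest rise among called genes averaging 100 counts or more in the 4 libraries. It was at 30.2 and 32.3 CPM with the mimic and 1.75 and 2.11 CPM with the control mimic. OSCAR, an immunoglobulin-like receptor, was at 9.28 and 9.25 against 0.538 and 0.719 CPM. AKAP12, a scaffold for protein kinase A on chromosome 6 from 151239999 to 151358557, went from a moderate to a high level, at 815 and 717 against 92.8 and 80.0 CPM. In none of the 3 did the groups overlap, as the choice of genes required. The pair of EGF receptor ligands AREG and EREG rose together, AREG being at 26.5 and 24.2 CPM with the mimic and 3.86 and 2.83 CPM without it. EREG rested on few reads in the control libraries, at 2.93 and 2.32 against 0.179 and 0.180 CPM, and changed by 3.83 (SE 0.36). With a mean under 100 counts, EREG is not counted among the 20 largest rises.

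Further genes among the 20 largest rises were TAGLN, which binds actin in smooth muscle, at 21.5 and 22.8 against 4.53 and 2.88 CPM, and AXL, a receptor tyrosine kinase, at 47.2 and 41.6 against 9.60 and 8.09 CPM. There were 3 secreted regulators of growth factors among them: IGFBP3 at 2.22, IGFBP2 at 2.21 and INHBB, an activin and inhibin subunit, at 2.26 on the log2 scale. TM4SF4, a tetraspan membrane protein, rose by 2.50 and LUCAT1, a long noncoding RNA, by 2.53. LYVE1, a hyaluronan receptor, was at 7.93 and 8.16 against 1.88 and 1.57 CPM and rose by 2.21 (SE 0.16). All 20 were called in each of the 16 alternative fits.

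LGALS2, a galectin on chromosome 22 from 37570246 to 37582616, had the largest fall, from 9.24 and 8.68 CPM in the control libraries to 1.11 and 0.949 CPM in the mimic libraries. TBX10, a T-box transcription factor, fell from 28.8 and 26.2 to 5.05 and 3.51 CPM. NPTXR, the neuronal pentraxin receptor, fell from 51.1 and 55.5 to 11.1 and 11.5 CPM. PGC, the precursor of the protease gastricsin, fell from 110.4 and 120.1 to 28.6 and 31.3 CPM. In each of these the higher mimic library lay well under the lower control library, where the choice of genes required no overlap. RHBG, an ammonium transporter, and ACSM1, a mitochondrial acyl-CoA synthetase, changed by -1.86 and -1.93. FAM20C, the kinase of secreted phosphoproteins, TJP3, a tight junction protein, and SCML2, a Polycomb protein, changed by -1.92, -1.88 and -1.87. The 20 falls were called in each of the 16 alternatives with 2 exceptions. TMEM91 (-1.90) lost its call in limma-voom and without control replicate 2, mimic replicate 1 or mimic replicate 2. DPYD, the first enzyme of pyrimidine breakdown (-1.86), lost it without mimic replicate 1.

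**Figure D1:**
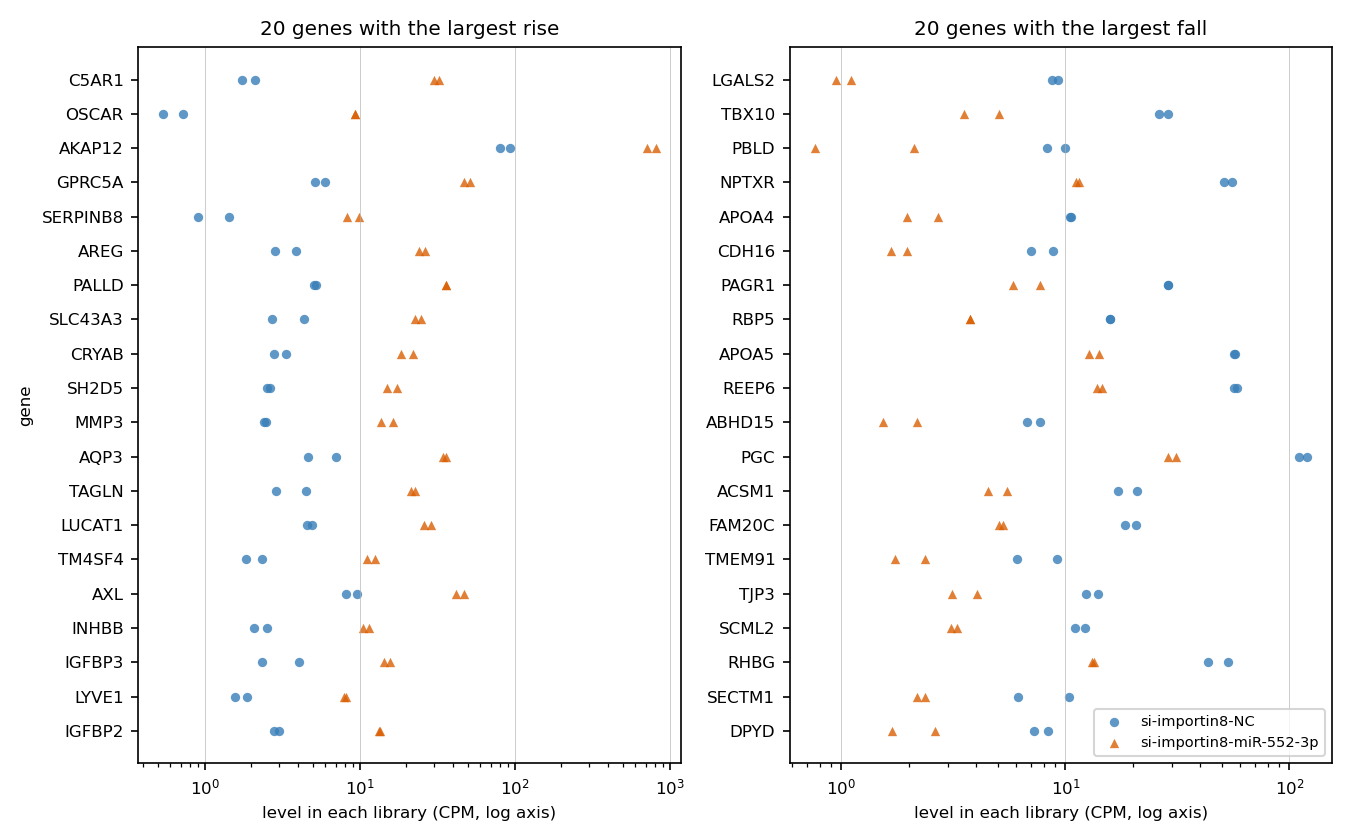
Level in each library, in CPM on a log axis, of the 20 genes with the largest rise (left) and the 20 with the largest fall (right) among called genes averaging 100 counts or more. Circles are the 2 control libraries and triangles the 2 mimic libraries. The groups do not overlap in any of the 40 genes, which the choice of genes required.

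Changes of a high level stand out per length of transcript, in the FPKM the authors deposited. ALB, serum albumin, was at 12152 and 11924 FPKM with the mimic and 9372 and 9098 FPKM with the control mimic. Its rise of 0.45 lost its call without mimic replicate 1 or either control library, at an adjusted p up to 0.083 in edgeR's quasi-likelihood test. IGFBP1, which binds insulin-like growth factors, was at 2394 and 2467 against 907 and 779 FPKM, and its rise of 1.60 lost its call when any of the 4 libraries was left out, at an adjusted p up to 0.091 in edgeR's quasi-likelihood test. FTL, the light chain of ferritin, was at 7309 and 7604 against 5850.4 and 5733 FPKM. Its rise of 0.44 was lost without control replicate 2. APOA2, an apolipoprotein of high-density lipoproteins, stood near the threshold at 0.29 and lost its call in 6 alternatives. Called in each of the 16 alternatives were ACTG1, the cytoplasmic gamma actin (2575 and 2622 against 1727 and 1703 FPKM) and TFPI, an inhibitor of coagulation (1374 and 1275 against 683 and 619 FPKM). RABEPK was at 1183 and 1133 against 488 and 474 FPKM. It ends at 125234158 on the plus strand of chromosome 9, next to the end of the chaperone gene HSPA5 at 125234853 on the minus strand. Reads of these neighbours may not have been separated.

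Of the 8 largest falls in FPKM 6 were of secreted proteins. Ranking by FPKM favours abundant transcripts, and the secreted ALB, IGFBP1, APOA2 and TFPI were among the rises in FPKM given above. APOA1, the main apolipoprotein of high-density lipoproteins, fell from 1526 and 1515 to 905 and 951 FPKM. TTR, the thyroxine and retinol carrier transthyretin, fell from 722 and 684 to 280.4 and 299.7 FPKM, and AGT, the precursor of angiotensin, from 499.6 and 503 to 270.1 and 279 FPKM. LYZ, lysozyme, SELENOP, a selenium carrier, CST3, the protease inhibitor cystatin C, and PEBP1, a protein that binds phosphatidylethanolamine, changed by -0.42, -0.46, -0.58 and -0.69 on the log2 scale. MIXL1, a homeobox transcription factor, fell from 249 and 248 to 63.6 and 69.2 FPKM. All 8 were called in each of the 16 alternatives.

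Stress response genes rose. Of 22 tested regulators and targets of ATF4 and CHOP, 17 rose and 0 fell, with a median of 0.61 on the log2 scale. Over all genes tested the median was -0.0045, and 15% rose. ATF3, a transcription factor of this response, was at 61.2 and 62.0 CPM with the mimic and 29.6 and 25.6 CPM without. DDIT3, which encodes CHOP, was at 132 and 138 against 79.5 and 71.9 CPM and TRIB3, a pseudokinase induced by both, at 308 and 309.8 against 163 and 137 CPM. ATF4 itself, which is known to be controlled largely at translation, rose by 0.45 (SE 0.07). The cystine transporter SLC7A11 rose by 1.31. In each of these the 2 groups were apart.

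Among aminoacyl-tRNA synthetases, which charge transfer RNAs, 15 of 20 rose and 0 fell (median 0.48), beside 15% and 16.7% of all genes. WARS, the tryptophan enzyme, was at 145 and 139.6 against 52.7 and 53 CPM, and CARS, SARS and GARS, for cysteine, serine and glycine, rose by 1.03, 0.91 and 0.90. Genes of serine, asparagine and one-carbon metabolism moved both ways, with 8 of 18 higher and 5 lower. The biosynthetic enzymes known as ATF4 targets were among the rises: asparagine synthetase ASNS was at 201 and 198 against 81.4 and 66.2 CPM, and ALDH1L2, CTH and MTHFD2 rose by 1.16, 1.02 and 0.85. The falls held the folate enzymes of nucleotide synthesis, SHMT1 at -0.74 and TYMS at -0.52, and the proline enzyme ALDH18A1 at -0.70.

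Of 20 chaperones and quality control genes of the endoplasmic reticulum, 15 rose and 1 fell, with a median of 0.58. The shares over all genes were 15% higher and 16.7% lower. HSPA5, the chaperone BiP, was at 326 and 318 CPM with the mimic and 135 and 117 CPM without it. DNAJB9 and DNAJC3, its cochaperones, rose by 1.55 and 1.17, and HERPUD1 and SEL1L, which serve degradation of misfolded proteins, by 1.24 and 1.21. The 1 that fell was XBP1, a transcription factor of the same response, from 249.97 and 241 to 181 and 198 CPM (-0.37). A count per gene does not show the splicing that activates XBP1. Of 19 heat shock proteins 16 rose and 0 fell (median 0.48), with CRYAB, a small heat shock protein, at 18.6 and 22.2 against 3.32 and 2.79 CPM. HSPA1A rose by 1.07 and its near-identical paralog HSPA1B by 0.99, between which reads may be divided arbitrarily. DNAJB1, a cochaperone of HSP70, rose by 0.81.

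In these 5 lists the leading counts changed little when 1 of the 4 libraries was left out: 14 to 16 ATF4 and CHOP genes rose, 13 to 14 synthetases, 12 to 13 chaperones of the endoplasmic reticulum, 13 to 15 heat shock proteins and 8 genes of serine and one-carbon metabolism. Other protective responses moved both ways, beside 15% of all genes higher and 16.7% lower. Of 20 NRF2 antioxidant genes 10 rose and 3 fell (median 0.32). GCLC, the catalytic subunit of glutathione synthesis, was at 299 and 281 against 95 and 87.1 CPM, and TXNRD1, thioredoxin reductase, rose by 1.08. The NRF2 targets NQO1 and HMOX1 were among the 3 falls, at -0.26 and -0.49. None of these 3 falls passed in the fits without mimic replicate 1, mimic replicate 2 or control replicate 1, and 1 passed without control replicate 2. SLC7A11 is on this list and on the ATF4 list. Of 20 hypoxia-inducible genes 7 rose and 2 fell. ENO2, a neuronal form of enolase, rose by 0.73 and SLC2A1, a glucose transporter, fell by 0.38 on the log2 scale. The rises were 3 to 5 and the falls 0 to 2 without 1 of the 4 libraries. The rises were 11 to 13 without either library of the NC group, and 13, with 4 falls, in a fit of the 4 libraries alone. Metallothioneins and zinc transporters gave 4 rises and 2 falls of 13, with MT1F at -0.98, MT1A at 0.90 and the manganese exporter SLC30A10 at -0.88. Without control replicate 2 a single rise was left there, and 2 without control replicate 1 or mimic replicate 1.

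Genes of the cell cycle fell. Of 29 genes of the G1/S transition and DNA replication 24 fell and 0 rose, with a median of -0.74, and of 26 genes of G2/M and mitosis 23 fell and 0 rose, with a median of -0.52. Over all genes 16.7% fell. E2F1, which drives entry into S phase, fell from 61.5 and 65.2 to 25.4 and 28.7 CPM, and E2F2 from 6.91 and 7.06 to 1.63 and 1.71 CPM. UHRF1, which maintains DNA methylation at replication forks, fell from 55.4 and 61.6 to 18.9 and 19.4 CPM. CDC25A, a phosphatase that activates cyclin-dependent kinases, and CCNE1, cyclin E, changed by -1.42 and -1.05. The replication proteins MCM2 and PCNA changed by -0.82 and -0.51. In mitosis, TOP2A, a topoisomerase, fell from 353 and 365 to 201 and 186 CPM, and the proliferation marker MKI67 from 153 and 172 to 107 and 96.4 CPM. AURKB, CCNB1 and CDC25C changed by -0.84, -0.63 and -1.02, while CDK1 at -0.26 did not pass. With 1 of the 4 libraries left out, 22 to 24 of the G1/S genes and 18 to 21 of the G2/M genes fell.

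Genes of the actin cytoskeleton rose, 17 of 27 with 2 lower (median 0.50), and 13 to 14 rose with 1 library left out. PALLD, which bundles actin, was at 36.0 and 35.8 CPM with the mimic and 5.25 and 5.08 CPM without it, and FLNA, filamin A, at 823 and 776 against 426 and 410.0 CPM. TES rose by 1.31. The muscle actins ACTA1 and ACTG2 rose from low levels, ACTA1 being at 6.44 and 5.55 against 0.942 and 0.899 CPM, and ACTG2 at 0.289 and 0.569 against 0 and 0.0450 CPM, which is at or near the level of single reads. ACTA2, the smooth muscle actin, was at 60.8 and 63.0 against 55.0 and 59.0 CPM and did not pass. LIMA1 was the larger of the 2 falls at -0.55, and 1 of the 2 passed when any of the 4 libraries was left out. Of 20 YAP and TEAD genes 5 rose and 0 fell, or 1 without either library of the NC group. For both lists the shares over all genes were 15% higher and 16.7% lower. ANKRD1 was at 479 and 452 against 211 and 187 CPM, and CYR61 rose by 0.93. CTGF, often read beside both, was at 408 and 430.3 against 534 and 474 CPM and did not pass (-0.27).

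Among genes of the extracellular matrix, 7 of 20 collagens, laminins and integrins rose and 0 fell. ITGA5, the integrin that binds fibronectin, was at 5.53 and 5.50 against 1.35 and 0.989 CPM, and its ligand FN1 at 14206 and 13141 against 8887 and 8662 CPM. THBS1 and LAMA3 rose by 0.70 and 0.75. Of 15 matrix proteases and their inhibitors 7 rose and 2 fell (median 0.87), beside 15% and 16.7% of all genes. MMP3, a stromelysin, was at 16.3 and 13.8 against 2.42 and 2.47 CPM. The inhibitors TIMP1 and SERPINE2 rose by 1.66 and 1.64. MMP15, a membrane-bound protease, fell from 248 and 239 to 116 and 119 CPM, and TIMP3 changed by -0.39.

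Keratins, the filament proteins of epithelial cells, had the highest list median, 1.39, with 9 of 10 tested members higher and 0 lower with all libraries and in each fit without 1 of the 4 libraries. Among all genes tested 15% were higher and 16.7% lower. KRT8 and KRT18 are the pair that hepatocytes make. KRT8 was at 1069 and 1085 against 783 and 760.2 CPM, and KRT18 at 766 and 775 against 502 and 491 CPM. KRT19, a keratin of bile ducts, was at 174 and 170.4 against 68.6 and 66.3 CPM and KRT23 at 149 and 151 against 33.3 and 31.8 CPM. KRT20, an intestinal keratin, was near the level of single reads in the control libraries and rose by 5.65 (SE 0.27), from 0.224 and 0.0899 to 8.70 and 7.64 CPM. KRT7, the other main bile duct keratin, had at most 8 counts in any of the 4 libraries and was not tested.

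Markers of other cell types were measured alongside. Of 12 biliary and progenitor markers 4 rose and 2 fell, beside 15% and 16.7% of all genes. Their summed level was 3709 to 3745 CPM in the mimic and 3356 to 3461 CPM in the control libraries. SOX4 was at 68.9 and 63.0 against 15.1 and 16.2 CPM, CD24 rose by 1.59 and SPP1, osteopontin, by 0.96, and KRT19 is on this list too, while LGR5, a WNT-responsive receptor, fell from 98.4 and 109 to 44.8 and 47.5 CPM. EPCAM, GPC3 and CDH1 did not pass. The number lower was 1 without mimic replicate 2 or control replicate 2. Of 7 fibroblast markers tested 1 rose, TAGLN, which is also on the actin list, and 1 fell, SPARC, from 68.9 and 69.9 to 31.6 and 35.1 CPM. The summed level of that list was 124 to 132 CPM with the mimic and 139 to 141 CPM without. Its defining members COL1A1 and PDGFRB did not pass, at 0.19 and 0.12, and THY1 had no count. COL1A2 had 21 counts in control replicate 1 and 0 in the other 3 libraries. Of 9 endothelial and blood markers 2 rose and 2 fell, with a summed level of 1534 to 1554 CPM against 1941 to 2006 CPM, most of it LYZ, at 1406 and 1405 against 1892 and 1858 CPM. ESAM rose by 2.18, a call lost in 7 alternatives, and CDH5 fell by 1.26 on the log2 scale, lost in 5. CD34 had no count, and PTPRC had at most 7. Among these endothelial and blood markers, 0 were higher without mimic replicate 1 and 1 without mimic replicate 2 or control replicate 2, and 1 was lower without any one of the 4 libraries.

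Among growth signalling genes both directions were called, where 15% of all genes rose and 16.7% fell. Of 24 genes of AP-1 and of the feedback on ERK kinase 12 rose and 1 fell. FOSL1, an AP-1 subunit, was at 56.8 and 59.9 CPM with the mimic and 24.1 and 22.2 CPM without it, and the phosphatases DUSP4, DUSP5 and DUSP1, which switch off MAP kinases, rose by 1.97, 1.76 and 1.04. IER3 had 66 counts in control replicate 1 and 0 in the other 3 libraries, and did not pass. The single fall was lost without any one of the 4 libraries, and 2 fell without either library of the NC group. Among EGF receptors and ligands 3 of 12 rose and 4 fell. The ligands AREG and EREG rose, whereas the ligand TGFA fell from 26.5 and 26.0 to 16.7 and 14.9 CPM and the receptor ERBB3 from 259.6 and 272 to 163 and 149 CPM. EGFR was at 35.8 and 38.1 against 38.6 and 37.7 CPM and did not pass. The number of falls was 2 without control replicate 2 or either mimic library.

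**Figure D2:**
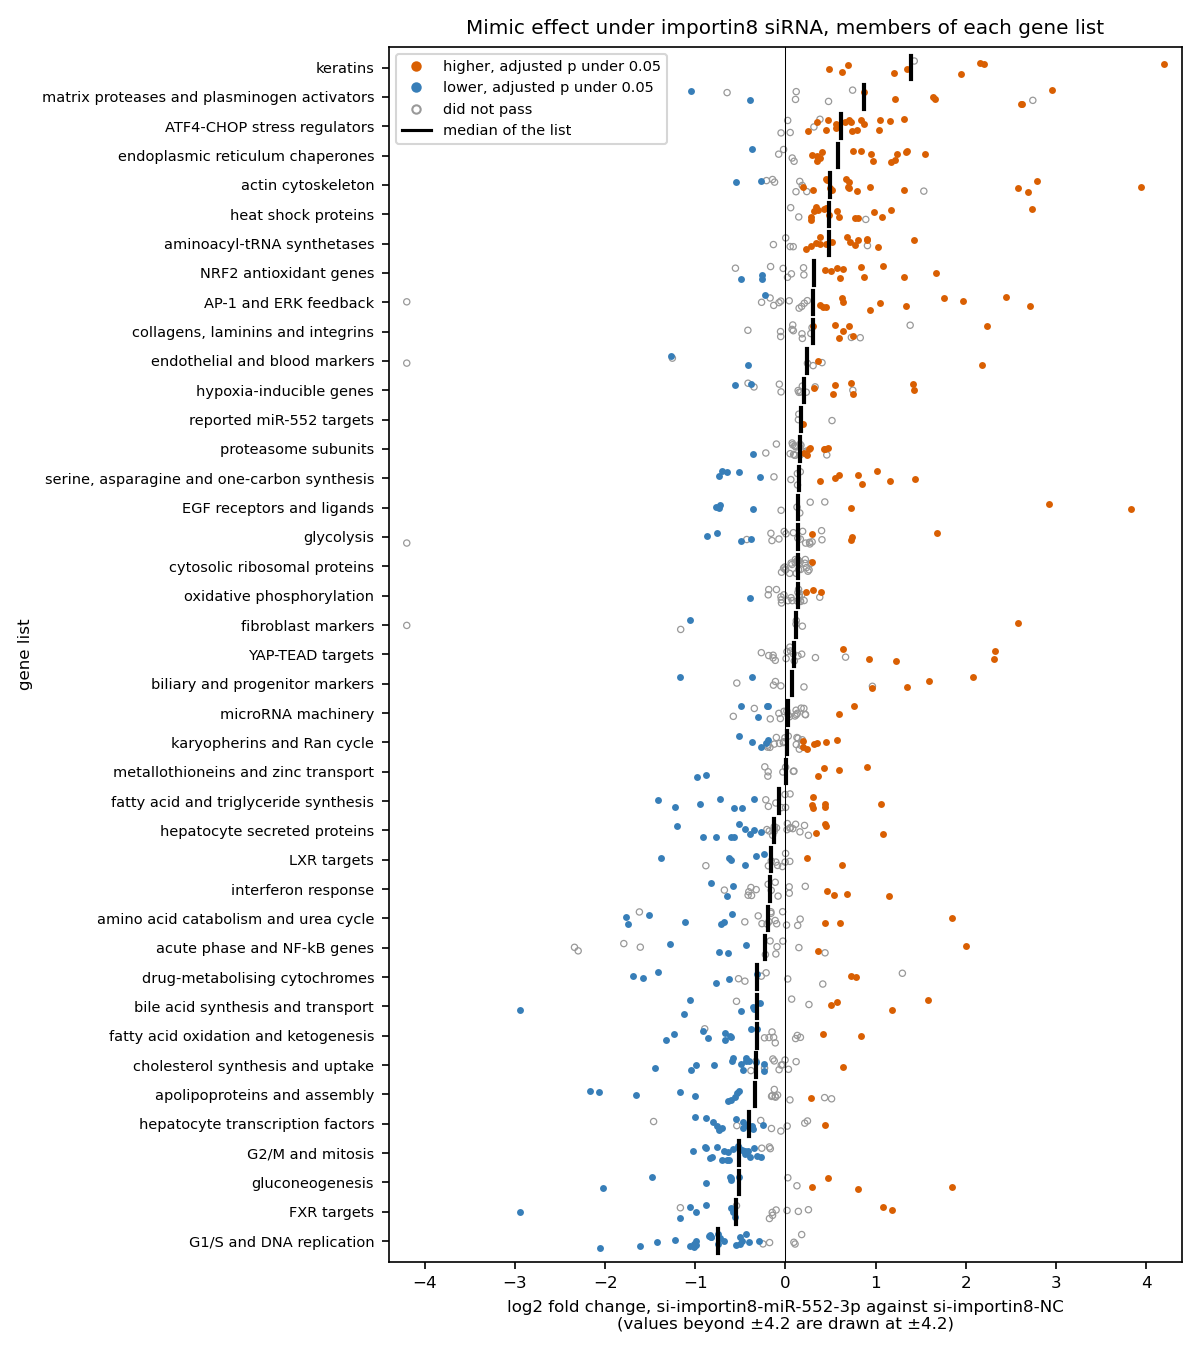
Log2 fold change of every tested member of 41 of the 42 gene lists, mimic libraries against control libraries, with 1 point per gene, filled where the adjusted p was under 0.05. Bars mark list medians, which run from -0.74 in the G1/S list to 1.39 in keratins, and values beyond 4.2 are drawn at 4.2.

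The transcription factors of hepatocytes fell, 14 of 24 with 1 higher (median -0.40), beside 16.7% and 15% of all genes. With 1 library left out 11 to 14 fell. HNF4A, the central regulator of hepatocyte genes, was at 246 and 239.9 CPM with the mimic and 309.6 and 317 CPM without it. CEBPA was at 67.9 and 73.6 against 116 and 120.3 CPM, PPARA, which drives fatty acid oxidation, at 61.6 and 56.3 against 99.9 and 105 CPM, and GATA4 at 36.8 and 40.9 against 61.9 and 64.4 CPM. NR5A2 (LRH-1), FOXA2 and RXRA changed by -0.75, -0.43 and -0.55. NR1H4, which encodes FXR, was at 70.3 and 66.2 against 84.7 and 77.1 CPM, a change of -0.25 that lost its call in 4 alternatives. ONECUT2 was the 1 that rose (0.43), and 2 rose without control replicate 1 or either library of the NC group.

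Among 30 secreted proteins of hepatocytes 10 fell and 4 rose (median -0.12), beside 16.7% and 15% of all genes. VTN, vitronectin, fell from 119 and 113 to 68.3 and 67.4 CPM and the complement factor CFB from 127 and 116 to 81.6 and 78.0 CPM, and HP, haptoglobin, changed by -0.57. The fibrinogen chains did not move together: FGB was at 389.8 and 391 against 185 and 184 CPM, whereas FGA and FGG changed by 0.26 and 0.02 and did not pass. AFP, TF and SERPINA1 did not pass either, at 0.06, 0.11 and -0.10. The number of rises was 1 without control replicate 2 and 2 without control replicate 1 or mimic replicate 1.

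In cholesterol metabolism 14 of 26 genes fell and 1 rose (median -0.32), and 12 fell with any 1 of the 4 libraries left out. The shares over all genes were 16.7% lower and 15% higher. DHCR7, the enzyme of the last step, fell from 238 and 216 to 109 and 110.4 CPM. HMGCS1, an early enzyme of the pathway, fell from 93.9 and 96.4 to 71.3 and 69.5 CPM. MVK and LSS changed by -0.59 and -0.79. SREBF2, whose product activates these genes, was at 195 and 182 against 191 and 187 CPM (0.00; SE 0.07) and did not pass.

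Fatty acid and triglyceride genes moved both ways, 7 of 20 lower and 6 higher, and 3 were higher without mimic replicate 1. The last step of triglyceride synthesis fell, DGAT1 from 57.0 and 58.4 to 24.5 and 24.8 CPM and DGAT2 from 77.6 and 70.6 to 37.8 and 38.9 CPM. The lipase PNPLA3 fell from 28.7 and 31.4 to 11.5 and 11 CPM. FASN, fatty acid synthase, was at 537 and 531 against 505 and 561 CPM. ACSL5, an acyl-CoA synthetase, rose by 1.06. Fatty acid oxidation and ketone synthesis held 21 tested genes, 10 lower and 2 higher. For both lists the shares over all genes were 16.7% lower and 15% higher. EHHADH, of the peroxisomal pathway, fell from 40.5 and 42.8 to 16.9 and 16.2 CPM, and the carnitine carrier SLC25A20 and the ketone enzyme BDH1 changed by -0.91 and -0.85. ACADVL, a dehydrogenase of very long chains, rose by 0.42, and CPT1A, the entry step, did not pass (0.17). The 2 rises were 1 without any one of the 4 libraries.

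Of 20 apolipoproteins and assembly genes 10 fell and 1 rose (median -0.33), the rise being lost without any one of the 4 libraries. Among all genes tested 16.7% fell and 15% rose. APOA5 fell from 56.4 and 56.9 to 12.8 and 14.2 CPM and APOC3 from 151 and 148 to 67.1 and 65.6 CPM. APOA5 is known to promote and APOC3 to slow clearance of triglyceride-rich particles. MTTP, which loads lipid onto apolipoprotein B, fell from 172 and 167 to 87.1 and 81.7 CPM, and LCAT, which esterifies cholesterol in plasma, from 24.9 and 26.7 to 9.28 and 7.02 CPM. APOB itself was at 16625 and 14055 against 14591 and 15029 CPM, with overlapping groups.

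Of 19 FXR targets tested 8 fell and 2 rose (median -0.54), with the same counts when any 1 of the 4 libraries was left out and 4 rises without NC replicate 1. The shares over all genes were 16.7% lower and 15% higher. The list of FXR targets mixes genes that FXR raises and genes that it lowers. Among those that FXR raises, NR0B2, the repressor SHP, was at 168 and 177 CPM with the mimic and 316 and 318 CPM without it, the phospholipid exporter ABCB4 changed by -0.58, SLC51A, a subunit of a bile acid exporter, by -0.56, and SDC1, a heparan sulfate proteoglycan, by -0.99. SLC51B, the partner of SLC51A, did not pass (-0.10), BAAT, which conjugates bile acids, rose from 10.8 and 8.09 to 22.2 and 20.5 CPM, and ABCB11, the bile salt export pump, had no count. Among those that SHP lowers, CYP8B1 fell from 5.65 and 6.56 to 0.866 and 0.712 CPM. The list of bile acid synthesis and transport gave 7 falls and 4 rises among 14, and its changes ran from -2.94 to 1.59. AMACR was at -1.12 and CYP27A1, of the acidic pathway, at -0.28. The summed level of the list was 1240 and 1201 CPM with the mimic and 1040 and 1015 CPM without it.

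Of 17 LXR genes and targets 6 fell and 2 rose, beside 16.7% and 15% of all genes. MLXIPL, the glucose-responsive factor ChREBP, fell from 156 and 164 to 58.9 and 63.7 CPM, while the sterol exporters ABCG5 and ABCG8 were at 0.00 (not passed) and -0.45 (lost in 4 alternatives). The exporter ABCA1 changed by -0.33, lost in 2 alternatives, and NR1H3, which encodes LXR alpha, by -0.23, lost in 8. SMPDL3A rose by 0.63. The number of falls was 3 without mimic replicate 2 or control replicate 2, and the number of rises 1 without control replicate 2 or any library given the mimic in either arm.

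Of 13 gluconeogenesis genes 7 fell and 4 rose (median -0.52). G6PC, which releases glucose, fell from 4.71 and 4.81 to 1.2 and 1.14 CPM, the factors CREB3L3 and PPARGC1A changed by -1.48 and -0.61, and FOXO1 by -0.52. TAT, tyrosine aminotransferase, went the other way, from 6.37 and 6.25 to 23.8 and 21.7 CPM, and pyruvate carboxylase PC rose by 0.47. In glycolysis 4 of 25 genes rose and 4 fell, near the 15% and 16.7% of all genes that did. PFKP, a phosphofructokinase, was at 1.69 and PKLR, the liver pyruvate kinase, at -0.76. The rises were 2 without mimic replicate 1 or control replicate 2, and the falls 2 without mimic replicate 1. A fit of the 4 libraries alone called 12 rises and 7 falls there, DESeq2 8 rises, and fits without either library of the NC group 10 to 11 rises. LDHB had 14 counts in control replicate 1 and 0 in the other 3 libraries.

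In amino acid breakdown and the urea cycle 7 of 24 genes fell and 3 rose, where 16.7% and 15% of all genes did. AGXT, the glyoxylate aminotransferase, fell from 57.8 and 61.9 to 16.7 and 19.0 CPM, and OTC and PRODH2 changed by -1.51 and -1.11. Of 15 drug-metabolising cytochromes and their regulators 6 fell and 2 rose: CYP4F12 fell from 16.9 and 16.8 to 6.64 and 6.03 CPM, CYP1A1 changed by -0.62, and its activator AHR rose by 0.73. CYP3A4 had at most 3 counts.

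Of 17 acute phase and NF-kB targets 4 fell and 2 rose, beside 16.7% and 15% of all genes. The chemokine CXCL8 was at 55.6 and 51.5 CPM with the mimic and 14.3 and 12.4 CPM without it, while NFKBIA, the inhibitor of NF-kB, fell from 149.6 and 153 to 87.3 and 94.4 CPM and ICAM1, an adhesion molecule, from 339 and 318 to 212 and 209 CPM. The falls were 2 without mimic replicate 1, and the rises 1 without mimic replicate 1 or control replicate 2. Of 20 interferon response genes 4 rose and 3 fell, shares near those over all genes, with ISG20 at 1.15, IFITM3 at 0.69 and OAS3 at -0.82. The rises were 2 without mimic replicate 2, control replicate 2 or either library of the group miR-552-3p. The falls were 1 without mimic replicate 1 or control replicate 1.

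Housekeeping complexes were read against the 15% of all genes that rose and the 16.7% that fell. Among 26 cytosolic ribosomal proteins 1 rose and 0 fell (median 0.14), but a fit of the 4 libraries alone called 12 higher, DESeq2 called 4, and 6 to 7 were called without either library of the NC group. None rose without control replicate 1. Oxidative phosphorylation genes gave 3 rises and 1 fall of 24. With 1 of the 4 libraries left out 0 to 1 rose, and in a fit of the 4 alone 7 rose and 2 fell. Of 25 proteasome subunits 7 rose and 1 fell (median 0.16), with PSMD14 at 0.47. The rises were 3 or 4 when any 1 of the 4 libraries was left out, and 11 in a fit of the 4 libraries alone or without NC replicate 1.

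The proteins through which a microRNA acts were measured too. AGO2, the slicing Argonaute, was at 78.1 and 73.9 CPM with the mimic and 46.8 and 42.9 CPM without it and rose by 0.76 (SE 0.08). AGO1, AGO3 and AGO4 did not pass, at -0.06, 0.12 and 0.18, nor did DICER1 or the scaffold genes TNRC6A, TNRC6B and TNRC6C. The deadenylase subunit PAN2 changed by -0.49, and DROSHA, XPO5 and TARBP2 by -0.20, -0.20 and -0.30, each lost in 5 or 6 alternatives. Over all genes 15% rose and 16.7% fell. On this list 2 of 23 rose, 4 of 23 without NC replicate 1, and 4 fell. The falls were 1 without either mimic library or control replicate 2 and 2 without control replicate 1. Of 28 karyopherins and Ran cycle genes, the family of IPO8, 7 rose and 5 fell (median 0.01). Apart from IPO8, the import receptor IPO9 fell from 97.2 and 93.3 to 76.0 and 71.4 CPM, while XPOT, the exporter of transfer RNA, was at 309.8 and 287 against 204 and 197 CPM and the import adaptor KPNA4 rose by 0.45. The median of both lists changed sign when only library totals were used for scaling. The karyopherin rises were 3 without mimic replicate 1 or control replicate 1 and 4 without control replicate 2. The falls were 2 without either mimic library or control replicate 2, and 3 without control replicate 1.

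Of 8 genes named as miR-552 targets in other systems, 4 had enough counts. Of the 4, 1 rose and 0 fell, and that rise passed in 1 of the 4 fits without 1 of the 4 libraries. Among all genes tested 15% rose and 16.7% fell. CYP2E1 had at most 3 counts. SMAD2 and DACH1 did not pass, at 0.15 and 0.52.

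A larger share of transcripts fell among those with a seed match in the 3′ untranslated region than among those with none. The match searched was the reverse complement of the seed on the transcript strand: CACCTGTA for the 8mer (the seed pairing followed by A), CACCTGT for the 7mer-m8 and ACCTGTA for the 7mer-A1, each gene counted once by its strongest match. The longest 3′ region annotated in GENCODE 29 was used, which 13733 of 15161 protein-coding genes tested have (90.6%). Of 1207 genes with an 8mer, 26.4% fell and 14.7% rose, with a median of -0.05. Of 1471 genes with a 7mer-m8, 24.6% fell, and of 771 with a 7mer-A1, 23.1%. Of 10311 genes with no match 18.1% fell and 17.8% rose, with a median of 0.00, beside 16.7% lower over all genes tested. No test was made of these shares, since genes are not replicates.

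The classes differ in more than the match. Their median region length was 3537 bases with an 8mer and 988 with none. Within regions under 1000 bases 27.9% of 111 genes with an 8mer fell against 18.0% with none, from 1000 to 3000 bases 30.1% against 19.0%, and at 3000 or more 24.2% against 15.4%. With the shortest annotated region in place of the longest, 29.6% of 395 genes with an 8mer fell and 19.0% of those with none. The motif also holds CACCTG, a form of the E-box CANNTG, and 601 of 1728 8mer matches (34.8%) are followed by ATCCCAG, a run as found in Alu repeats. Without those matches 870 genes kept an 8mer, of which 26.2% fell and 14.9% rose. Only that exact run was searched, so matches in repeats may remain among them. In the control siRNA arm 35.0% of genes with an 8mer fell and 30.8% of those with none, beside 29.5% lower over all genes there. A match is a description of letters and not a site shown to be bound.

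The 8 genes with an 8mer that fell most are shown by their match, in capitals at the end of 21 transcript bases, since they join the largest falls to a full match of the seed.
NPTXR: tcccatttcccctCACCTGTA
PAGR1: tttttctattgaaCACCTGTA
SCML2: gaatttaaaggtgCACCTGTA
CYP4F3: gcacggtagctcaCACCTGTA
ITGAL: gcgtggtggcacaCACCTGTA
EIF4EBP2: agttttgtccttcCACCTGTA
PURA: atgtataagacacCACCTGTA
POLD3: tagatctccacctCACCTGTA
These lie, in GRCh38, at chr22:38822467-38822487 (NPTXR, minus strand), chr16:29819921-29819941 (PAGR1, plus), chrX:18240779-18240799 (SCML2, minus), chr19:15661997-15662017 (CYP4F3, plus), chr16:30522806-30522826 (ITGAL, plus), chr10:70424895-70424915 (EIF4EBP2, plus), chr5:140116916-140116936 (PURA, plus) and chr11:74640853-74640873 (POLD3, plus). The match in CYP4F3 is followed by ATCCCAG and the other 7 are not. Whether any of the 7 lies in a repeat was not examined further.

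EIF4EBP2, an inhibitor of cap-dependent translation, had the most reads of the 8 and fell from 148 and 149.6 to 49.3 and 47.2 CPM, a change of -1.63 with an SE of 0.07 and a Benjamini-Hochberg p of 5.9e-07 in edgeR's quasi-likelihood test. PAGR1, a subunit of histone methyltransferase complexes, fell from 28.7 and 28.7 to 5.82 and 7.73 CPM. POLD3, a subunit of DNA polymerase delta, fell from 12.8 and 12 to 3.94 and 4.65 CPM, and PURA, which binds single-stranded nucleic acid, from 16.3 and 17.3 to 6.30 and 5.31 CPM. In all 8 both mimic libraries lay under both control libraries, as the choice required. The same genes with control siRNA changed by -2.66 (EIF4EBP2), -2.71 (PAGR1), -2.83 (NPTXR), -2.03 (SCML2), -2.10 (PURA), -1.49 (POLD3), -0.48 (CYP4F3) and -0.31 (ITGAL), all but the last called. CYP4F3, a hydroxylase of leukotrienes, fell further under importin8 siRNA, with a difference of -1.21 (adjusted p = 0.00085, edgeR's quasi-likelihood test), whereas EIF4EBP2, NPTXR and PURA fell further with control siRNA.

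**Figure D3:**
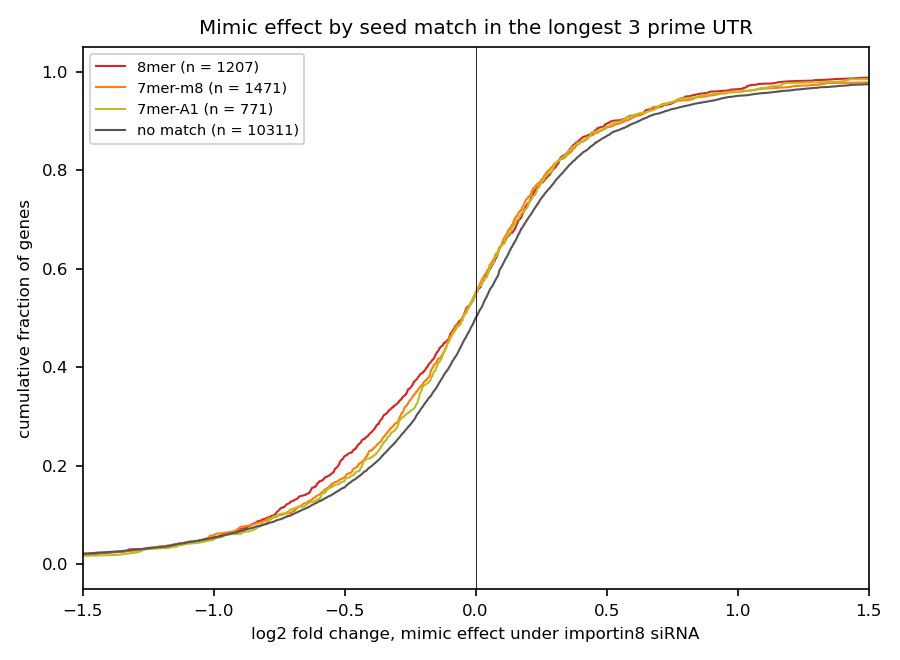
Cumulative fraction of genes (vertical axis) against the log2 fold change, mimic libraries against control libraries (horizontal axis), with 1 line for each class of seed match in the longest 3′ untranslated region. The lines of the 3 match classes lie left of the line of genes with no match, with medians of -0.05 against 0.00.

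The same mimic was given with a control siRNA, and the 2 mimic effects share no library, though 1 fit gave both their spread and their scaling. There 10341 genes were called (58.4%). Of the 5607 genes called under importin8 siRNA, 83.3% were called in the same direction with control siRNA, which is 45.1% of the genes called there. A further 187 genes were called in both arms in opposite directions, 93 of them higher under importin8 siRNA. Of the 4668 called in the same direction, 3959 (84.8%) had the smaller change under importin8 siRNA. Their median size on the log2 scale was 0.57 with importin8 siRNA and 1.03 with control siRNA.

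The difference between the 2 mimic effects was tested in the same fit, and 5551 of 17715 genes passed (31.3%), 2513 with the higher and 3038 with the lower value under importin8 siRNA. Of the 5607 called genes, 2492 (44.4%) had a difference that passed and a smaller change under importin8 siRNA, 384 (6.85%) one that passed and a larger change, and 2731 (48.7%) one that did not pass. A difference that did not pass does not show equal effects. These counts share libraries with the comparison they describe.

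The arms differed in one direction for nearly all cholesterol genes. The difference was positive and called for 23 of 26 of them, that is, a higher log2 change under importin8 siRNA, and negative for 1. Over all genes 14.2% had a called positive difference. SREBF2 differed by 0.55, LSS by 1.69 and MVK by 1.68. Hepatocyte transcription factors gave 10 positive and 3 negative differences of 24, with NR5A2 at 2.39 and NR1H4 at 1.18. On the rising side, 18 of 27 actin genes, 16 of 22 ATF4 and CHOP genes and 15 of 19 heat shock proteins had a called negative difference, that is, a lower log2 change under importin8 siRNA, beside 17.1% over all genes. CYR61 differed by -4.80, ANKRD1 by -5.52 and HSPA1A by -3.02. The groups without the mimic started at different levels. Summed ATF4 and CHOP genes were at 2904 and 2520 CPM in NC and 6727 and 6584 CPM in miR-552-3p. They were at 4655 and 4246 CPM in the control libraries and 6591 and 6463 CPM in the mimic libraries. Summed cholesterol genes were at 4885 and 4718, 2240 and 2271, 3834 and 3774 and 3149 and 3087 CPM in the same order. The part of the starting level in the differences was not tested. Of the 29 G1/S genes the difference passed for 9, 5 positive and 4 negative, a share near the 31.3% of all genes, and of the 26 G2/M genes for 5, 4 positive and 1 negative. UHRF1 changed by -1.61 under importin8 siRNA and -1.39 with control siRNA, a difference of -0.23 (SE 0.12). Among aminoacyl-tRNA synthetases WARS and AARS differed by -0.09 (SE 0.08) and -0.03 (SE 0.09), neither of which passed, while YARS differed by -1.25.

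The genes that follow were chosen after their values were seen. TSC22D3 (GILZ), a glucocorticoid-induced regulator, rose under importin8 siRNA, from 1.12 and 0.899 to 3.46 and 4.03 CPM, and fell with control siRNA, from 10.1 and 13.1 to 3.07 and 3.53 CPM. LAMA3, a laminin chain, changed by 0.75 under importin8 siRNA and -1.12 with control siRNA, SERPINA3, an acute phase antiprotease, by 0.93 and -1.17, and TDGF1, a NODAL coreceptor, by -0.91 and 1.47. CYP7A1, the hydroxylase that starts bile acid synthesis from cholesterol, fell under importin8 siRNA, from 22.3 and 21.2 to 10.6 and 10.2 CPM, with a difference of -1.58 (SE 0.23). Its opposite value with control siRNA was 0.52, from a level of 1.31 and 1.80 CPM. Among genes whose change was larger under importin8 siRNA, LYVE1 rose by 2.21 against 0.55, CRYAB by 2.74 against 1.88 and PHLDA2, an imprinted gene, by 1.80 against 1.13. MIXL1 changed by -1.83 against -0.90, the WNT antagonist DKK4 by -1.68 against -0.20, the WNT receptor FZD4 by -1.35 against -0.71 and the kinase SGK1 by -1.35 against -0.70.

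**Figure D4:**
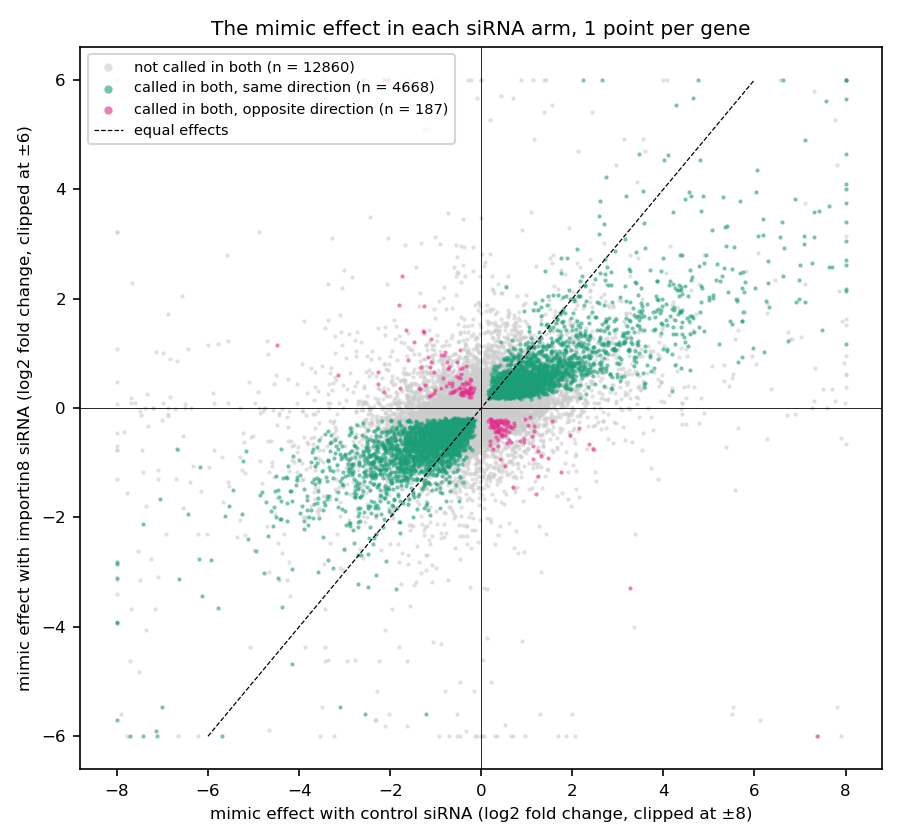
Log2 fold change of the mimic with control siRNA (horizontal axis) and with importin8 siRNA (vertical axis), 1 point per gene tested, with values clipped at 8 and 6. Of the genes called in both arms, 4668 changed in the same direction, most of them between the dashed line of equal effects and the horizontal axis, and 187 in opposite directions.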

How the data were processed

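HepG2 RNA was selected by poly(A) and read from one end for 50 bases on DNBseq, per the labels' protocols. HISAT2 2.0.4, Bowtie2 2.2.5, RSEM 1.2.8 and GRCh38.p12 are named in the submitters' processing notes. The authors deposited expected counts, which need not be whole, and an expression value per gene that is read here as FPKM from its values. Whether counting used strand was not given in the sources used here, so overlapping and antisense genes may share reads. Intervals between libraries and floors of 3 counts cover counting error only for reads without molecular identifiers.

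Expected counts were rounded and fitted over all 8 libraries in edgeR 4.0.16 (R 4.3.3): filterByExpr on groups, TMM scaling, robust quasi-likelihood fit with 1 mean per group, and Benjamini-Hochberg adjustment over 17715 genes. A gene was called, or said to rise or fall, at an adjusted p under 0.05. SE is the log2 fold change divided by the square root of the F statistic. CPM uses the scaled library sizes. A simulation for this comparison over 17219 genes changed 98 genes by 1 and 96 by 0.5 on the log2 scale. The fit called 57.1% and 40.6% of these, 0 with the wrong sign, and 0.0646% of unchanged genes. Far fewer genes were changed there than the 5607 called in the data, so these shares need not hold for the data.

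Named genes were IPO8, the 20 largest rises and falls, the 8 largest in mean FPKM in each direction, the 8 highest and lowest differences between arms, up to 6 called members of each list and the 8 largest falls with an 8mer. All but the list members and the differences had at least 100 counts on average, and no overlap, in the 4 libraries compared. For the differences the mean was over all 8 libraries and no overlap was required in at least 1 arm. Some of those genes had few counts in the 4 libraries. Members named for not passing were allowed. Other called members, among them NQO1, HMOX1, DROSHA and CDH5, were chosen after their values were seen. The members of the 42 gene lists (845 of 854 in the table) and the comparisons were chosen with earlier results of these data known, so the counts give no independent support. Some members and 1 list are not reported here. Gene positions are those of GENCODE 29 and promoters those of the RefSeq table. A search of promoters for CACCTGT on either strand covered only 74.5% of protein-coding genes tested. Of 409 genes with a match there 18.3% fell and 15.2% rose, against 18.1% and 16.2% of 12273 with none. No test was made of these shares. Of the table's genes 22421 (83.9%) matched the reference gene table. The alternatives were DESeq2 1.42.0, limma-voom 3.58.1, other scalings and filters, a replicate block, a fit of the 4 libraries alone and leaving out each library, 16 in all.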

Additional observations from a re-analysis of the deposited data

Results flagged for a closer look

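The mimic's effect differed between the 2 siRNA arms, by the test of the difference itself, in 5551 genes. Among those with enough counts, 8 genes had the highest positive difference of log2 fold changes: GLP2R at 9.10, SLC6A12 at 6.96, PTGS1 at 6.22, ETNPPL at 6.17, AQP6 at 6.11, RANBP3L at 5.96, ANXA13 at 5.93 and SLC4A3 at 5.66. All 8 were high in the NC group alone and low in the other 3 groups. The choice favoured such genes, since it ranked on this difference and asked for 100 counts on average over all 8 libraries. Counts in NC alone can pass that filter, as they did for GLP2R, so the pattern is no separate support. SLC6A12, a betaine and GABA transporter, had 9464 and 9568 counts in the NC libraries, 10 and 10 in the miR-552-3p libraries, 69 and 71 in the control libraries with importin8 siRNA and 13 and 5 in the mimic libraries with importin8 siRNA. ETNPPL, which breaks down phosphoethanolamine, had 4486 and 4493, 76 and 68, 73 and 76 and 79 and 91 counts in the same order. Of the 8, SLC6A12, AQP6 and ANXA13 fell with the mimic under importin8 siRNA, with changes of -2.85, -2.82 and -0.75 on the log2 scale, and the other 5 did not pass. ANXA13 lost its call in 9 of 16 alternatives, at an adjusted p up to 0.31 in edgeR's quasi-likelihood test, and AQP6 lost it without mimic replicate 1. GLP2R had 643 and 704 counts in the NC libraries and 1 to 3 in each of the other 6, so its fitted value depends on the small count added in the fit and is not a bound.

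The 8 lowest differences were HSPA6 at -7.19, ATP6V0D2 at -6.47, IGFN1 at -6.14, CA12 at -6.07, ESAM at -6.01, ANKRD1 at -5.52, KRT37 at -5.18 and MYOF at -5.12. These genes had fewer counts in both NC libraries than in any library of the other groups. Ranking on the difference favours this pattern too. HSPA6, a heat shock protein, had 5 and 7 counts in the NC libraries, 2193 and 1675 in the miR-552-3p libraries, 380 and 286 in the control libraries with importin8 siRNA and 697 and 713 in the mimic libraries with importin8 siRNA. ANKRD1, a muscle ankyrin repeat protein, had 182 and 135, 16832 and 15741, 4693 and 4148 and 9963 and 9529 counts in the same order. All 8 also rose with the mimic under importin8 siRNA, from 1.03 in KRT37 to 3.41 in ATP6V0D2. KRT37 lost its call without control replicate 2 or either mimic library, at an adjusted p up to 0.13 in edgeR's quasi-likelihood test. In that arm ESAM differed between replicates, with 812 and 536 counts in the mimic libraries and 234 and 82 in the control libraries, and its rise lost its call in 7 of 16 alternatives, among them the fit without mimic replicate 1. ATP6V0D2 and MYOF had 0 counts in 1 NC library, so their differences depend on the small count added in the fit.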

How the results depend on the processing

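The calls with importin8 siRNA (5607) numbered 3482 at an adjusted p under 0.01, and DESeq2 called 3983, with 1955 lower and 2028 higher. Leaving out 1 library at a time gave 3545 to 6087 calls, 1639 to 3095 higher, 1877 to 3071 lower and 886 to 1121 past 2-fold. Without si-importin8-NC replicate 2 there were 3545 (1639 higher, 1906 lower), without si-importin8-miR-552-3p replicate 1 there were 3551 (1674 higher, 1877 lower), and without si-importin8-miR-552-3p replicate 2 the number lower was 1952. A lone library was then assumed to vary like the other groups. Scaling by library totals gave 5745 (2107 higher, 3638 lower), the 4 libraries alone 6438, limma-voom 5532, RLE scaling 5593, no filter 5426 and a filter of 50 counts in 2 libraries 5720. The mimic effect with control siRNA had 8887 to 10180 calls with 1 library left out, and the difference between the effects 4187 to 5706. In the replicate block fit 5847 genes were called with importin8 siRNA, 10424 with control siRNA and 5786 for the difference. Same-numbered libraries of the compared groups did not deviate together (r = -0.013 across genes, and -0.013 to 0.111 over all pairs of groups), so the numbers were not read as pairs. No named gene or list member that was called reversed its direction in any alternative. Of 470 called ones, leaving out 1 of the 4 libraries ended 80 to 99 calls, DESeq2 51, library totals 23 and the replicate block 1. The causes were not tested. Of the 5607 genes, 2778 (49.5%) were called in the same direction in all 16 alternatives. The medians of the microRNA machinery, karyopherin and metallothionein lists changed sign with library totals. The depth limits genes of a few counts per library, where single reads decide a fold change. List members named here, such as EREG and ACTG2, may average under 100 counts.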

Other observations

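Some genes had counts in 1 of the 4 libraries alone. At 10 or more counts in 1 library and 0 in the other 3, mimic replicate 1 held 12 genes, mimic replicate 2 held 10, control replicate 2 held 12 and control replicate 1 held 28, summing to 710 counts there. Those of control replicate 1 included IER3, a target of ERK signalling, with 66 counts, COL1A2, a collagen chain of fibroblasts, with 21, and LDHB, a lactate dehydrogenase subunit, with 14. None of these 3 genes passed the test. The most abundant gene of the table is an unnamed prediction that took 6.90% to 8.92% of the counts in the 4 libraries. It is not described further, since its sequence is not known here.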
